A study of Mus musculus with 6 samples.

Results

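The 9 genes described here mark the B cell lineage: Cd79a, Cd79b, Ms4a1 and Pax5 for B cells, Jchain, Mzb1, Igkc and Igha for antibody-secreting plasma cells, and Ighm, which both make. They were chosen by symbol and are 9 of the 48709 genes in the count table. The series measured total RNA from the gingiva, also labelled oral mucosa, of 12-week-old C57BL/6 mice, in 3 libraries labelled Plg KO and 3 labelled Plg WT. The deleted gene encodes plasminogen, from which the fibrin-dissolving protease plasmin is made, and the series asks how fibrin bears on neutrophils at mucosal surfaces. The design text calls the mice Plg-deficient and their controls wild-type littermates. The labels name neither the mutant allele nor the sex, and no further allele or agent is named for either group. Nothing in them says that each library is a separate animal, and the p-values therefore reflect spread among libraries that may in part be technical.

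B cells carry membrane immunoglobulin bound to the signalling chains Cd79a and Cd79b, which together form the B cell receptor. After activation they can switch from IgM and IgD to IgG, IgE or IgA and mature into plasma cells, which lose much of the B cell surface program and secrete antibody. At mucosal surfaces and in salivary glands, plasma cells make IgA joined by the J chain, which the receptor encoded by Pigr carries across the epithelium.

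Total gene counts per library were 26183389 to 36429150 in Plg KO and 28184139 to 36006829 in Plg WT. Plg had 2 counts in Plg KO 1, 2 counts in Plg WT 3 and none elsewhere, so it gives no check of the labels in this tissue. Plg KO 1 and Plg WT 3 stood apart by sex-linked transcripts, with 1838 and 1475 Ddx3y counts against at most 2 in the other libraries. Markers of stratified epithelium summed to 41143 to 49808 CPM (counts normalised to one library size) in Plg KO and 40135 to 48762 CPM in Plg WT, as the tissue label says. Skeletal muscle markers varied more, at 2413, 9308 and 11111 CPM in Plg KO, against 10548, 5629 and 6788 CPM in Plg WT. Tissue content thus differed among libraries, and its part in the results was not tested. Plg KO 3 stood apart in plasma cell transcripts and Plg WT 1 in B cell transcripts, and each result that rests on them is given library by library. By edgeR's quasi-likelihood test, with p-values adjusted by Benjamini-Hochberg over 17757 genes and a threshold of 0.05, 8 genes were lower in Plg KO and 34 higher, 42 in all. In bulk tissue, fewer cells of a type and less RNA per cell cannot be told apart.

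The sequences before the start sites of a B cell gene and a plasma cell gene are shown because the levels of Cd79a ordered the libraries by genotype and those of Jchain did not. RefSeq's promoter table (GRCm38.p6, 250 bases before to 50 after the start) held 3 of the 9 genes, Cd79a, Jchain and Pax5. Capitals mark matches, on either strand, to motifs of factors that act in B cells: the octamer ATGCAAAT, the EBF core CCCNNGGG, the E-box CAGGTG and the ETS core CAGGAAGT. The motifs were chosen after the sequences could be seen.
Cd79a promoter, chr7:24897247-24897546, plus strand: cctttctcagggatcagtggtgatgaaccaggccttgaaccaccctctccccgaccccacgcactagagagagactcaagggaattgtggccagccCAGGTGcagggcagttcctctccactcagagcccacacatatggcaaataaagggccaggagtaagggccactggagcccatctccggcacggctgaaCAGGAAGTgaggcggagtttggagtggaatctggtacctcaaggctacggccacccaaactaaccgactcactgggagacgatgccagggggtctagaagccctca
Jchain promoter, chr5:88527848-88528147, minus strand: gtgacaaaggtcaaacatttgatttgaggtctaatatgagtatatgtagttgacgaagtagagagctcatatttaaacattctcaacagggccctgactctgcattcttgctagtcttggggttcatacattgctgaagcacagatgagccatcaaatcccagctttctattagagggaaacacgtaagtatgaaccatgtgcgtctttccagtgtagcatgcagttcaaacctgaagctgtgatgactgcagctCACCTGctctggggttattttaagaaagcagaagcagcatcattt
The Cd79a window held 1 CAGGTG and 1 CAGGAAGT, the Jchain window held 1 CAGGTG, read on the printed strand as its reverse complement, and the Pax5 window held none of the 4. No match overlapped another. Among 32851 promoters of this length, CAGGTG occurs in 20.2%, CAGGAAGT in 3.33%, CCCNNGGG in 13.7% and ATGCAAAT in 1.74%, so these matches are a description only.

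B cell transcripts were lower in every Plg KO library than in any Plg WT library for Cd79a, Cd79b and Ms4a1. The size of the difference ran from 11.8-fold for Cd79b to 64.9-fold for Ms4a1 in group means. These sizes leaned on Plg WT 1: without it the log2 changes were -3.62 for Cd79a, -2.66 for Cd79b and -4.78 for Ms4a1, against -4.66, -3.55 and -5.81 with all libraries. None of the 3 passed the threshold across all genes. Of the 8 members that passed the filter on low counts, edgeR called 0 and limma-voom 0, against 0.0451% of all tested genes called lower and 0.191% called higher by edgeR, or 0.237% in either direction. At an unadjusted p under 0.05, 4 of the 8 were lower (Cd79a, Cd79b, Ms4a1 and Ighm) and 0 higher, against 4.27% and 4.97% of all tested genes, or 9.25% in either direction. DESeq2 called these 4 lower and 0 members higher, against 0.721% and 1.55% of all genes. Without a filter on low counts, edgeR also called these 4 lower and 0 members higher, against 0.126% and 0.384% of 31749 genes. Their Plg KO libraries lay below all Plg WT libraries, which held for 7.18% of all tested genes. Of these 4, Cd79a and Ms4a1 passed the filter on low counts only through Plg WT, which favours a lower value.

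Cd79a (ENSMUSG00000003379, GRCm38 chromosome 7, 24897381 to 24902197) encodes a signalling chain of the B cell receptor. It had 12, 3 and 15 counts in Plg KO 1, 2 and 3, against 565, 142 and 72 counts in Plg WT 1, 2 and 3. Its level averaged 0.287 ± 0.155 CPM in Plg KO and 7.60 ± 6.91 CPM in Plg WT (SD, n = 3 each). The groups do not overlap, and the Plg WT libraries differ among themselves by more than the 3 Plg KO libraries do. The log2 change was -4.66 ± 0.81 (SE) with an edgeR adjusted p of 0.0949, and DESeq2 gave an adjusted p of 7.57e-10 while limma-voom gave 0.352. Without Plg WT 1, the library with the most Cd79a, the edgeR adjusted p was 0.0434, and Cd79a was then the only member called. That fit called 0.195% of all genes lower and 1.02% higher.

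Cd79b (chromosome 11, 106311341 to 106314762), its partner chain, had 18, 14 and 31 counts in Plg KO, against 525, 172 and 61 in Plg WT. The log2 change was -3.55 ± 0.72 with an edgeR adjusted p of 0.153. All 3 Plg KO libraries again lie below the Plg WT libraries, and the order within Plg WT is that of Cd79a. Ms4a1 (chromosome 19, 11249675 to 11266241), which encodes the surface protein CD20, had 1, 0 and 4 counts in Plg KO, against 222, 56 and 30 in Plg WT. Its log2 change was -5.81 ± 1.01 with an edgeR adjusted p of 0.0946. With 5 counts over 3 libraries, Ms4a1 was close to undetected in Plg KO, and a count of 0 in Plg KO 2 allows up to 0.115 CPM, for counting error alone. Pax5 (chromosome 4, 44524757 to 44710487), the transcription factor that keeps B cell identity, had 6, 0 and 7 counts in Plg KO, against 34, 9 and 3 in Plg WT. These overlap, and Pax5 did not pass the filter. Tested without a filter, its log2 change was -1.82 with an edgeR adjusted p of 0.757. The gene's exons overlap those of 2 genes on the opposite strand, Gm12462 and 5730488B01Rik, whose reads an unstranded library cannot separate from its own.

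Ighm (chromosome 12, 113418558 to 113422730), the constant region of IgM, had the most counts of the 9 genes in Plg KO 1 and 2. It had 232, 110 and 268 counts in Plg KO, against 1261, 945 and 348 in Plg WT, or 6.01 ± 1.63 CPM in Plg KO and 26.4 ± 13.2 CPM in Plg WT (SD, n = 3 each). The highest Plg KO library, at 7.51 CPM, lay below the lowest Plg WT library, at 11.1 CPM. The log2 change was -2.13 ± 0.43 with an edgeR adjusted p of 0.156 and a DESeq2 adjusted p of 1.57e-05. Its reads were thus 4.40-fold fewer in group means, a smaller difference than for Cd79a, Cd79b or Ms4a1, and the differences between these ratios were not tested.

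**Figure D1:**
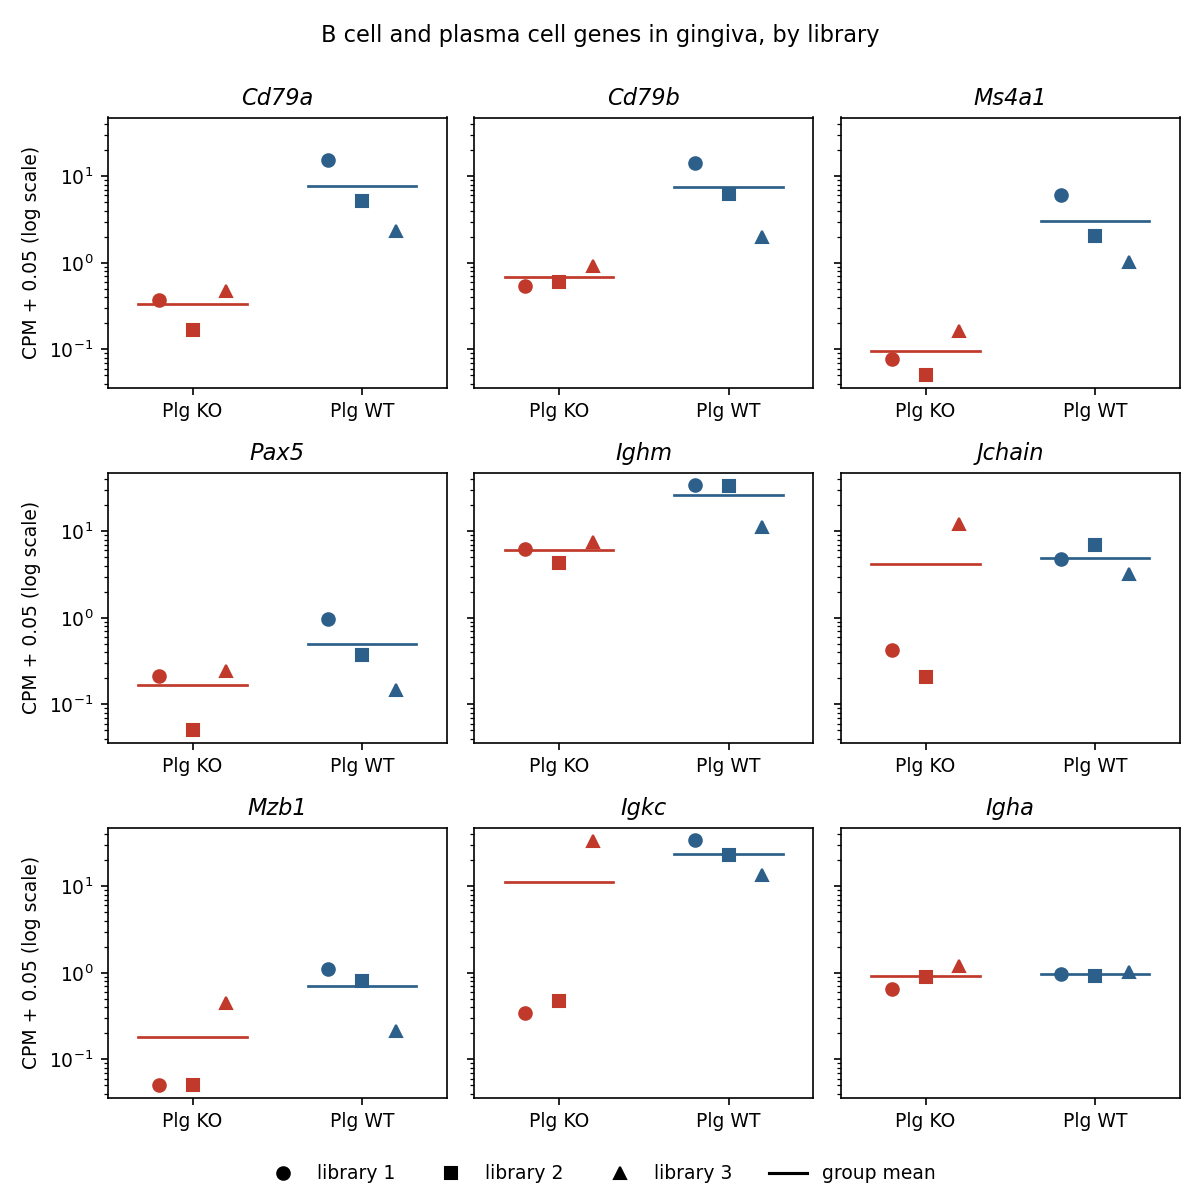
Normalised level of each of the 9 genes in every library, in CPM plus 0.05 on a log axis, with Plg KO (left) and Plg WT (right) for each gene; points are libraries and horizontal lines are group means. Cd79a, Cd79b, Ms4a1 and Ighm have all Plg KO libraries below all Plg WT libraries, whereas Plg KO 3 alone reaches the Plg WT range for Igkc and lies above it for Jchain.

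Other genes of B cell receptor signalling and B cell identity also had lower values in Plg KO. Of the 25 genes on a list of co-receptors, kinases, adaptors and transcription factors, 23 were tested and 0 were called by edgeR or limma-voom. At an unadjusted edgeR p under 0.05, 15 were lower and 0 higher, against 4.27% and 4.97% of all tested genes. All 23 had a negative log2 change, with a median of -1.79, against a median of -0.00 and 9024 negative of 17757 over all tested genes. Several of them passed the filter on low counts only through Plg WT, which favours a negative value. Bank1, for example, had 8, 1 and 6 counts in Plg KO, against 87, 38 and 10 in Plg WT. Fcrla and Vpreb3, the listed genes that did not pass, had edgeR log2 changes of -3.75 and -3.88 without a filter. For 12 of the 23, all Plg KO libraries lay below all Plg WT libraries, against 7.18% of all tested genes. DESeq2 called 12 lower, against 0.721% of all tested genes. Btk, the kinase downstream of the receptor, averaged 1.79 ± 0.358 CPM in Plg KO and 6.20 ± 3.18 CPM in Plg WT (edgeR adjusted p = 0.172), though myeloid cells also use it. Fcer2a, the low-affinity IgE receptor CD23 of follicular B cells, had 12, 11 and 15 counts in Plg KO, against 130, 56 and 25 in Plg WT (edgeR adjusted p = 0.194). Ighd, the constant region of IgD carried by naive B cells, had 6, 3 and 21 counts in Plg KO, against 498, 178 and 109 in Plg WT. The Ighd difference, a log2 change of -4.69 ± 0.72 with an edgeR adjusted p of 0.0683 (-4.03 and 0.0442 without Plg WT 1), was of the size seen for Cd79a.

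**Figure D2:**
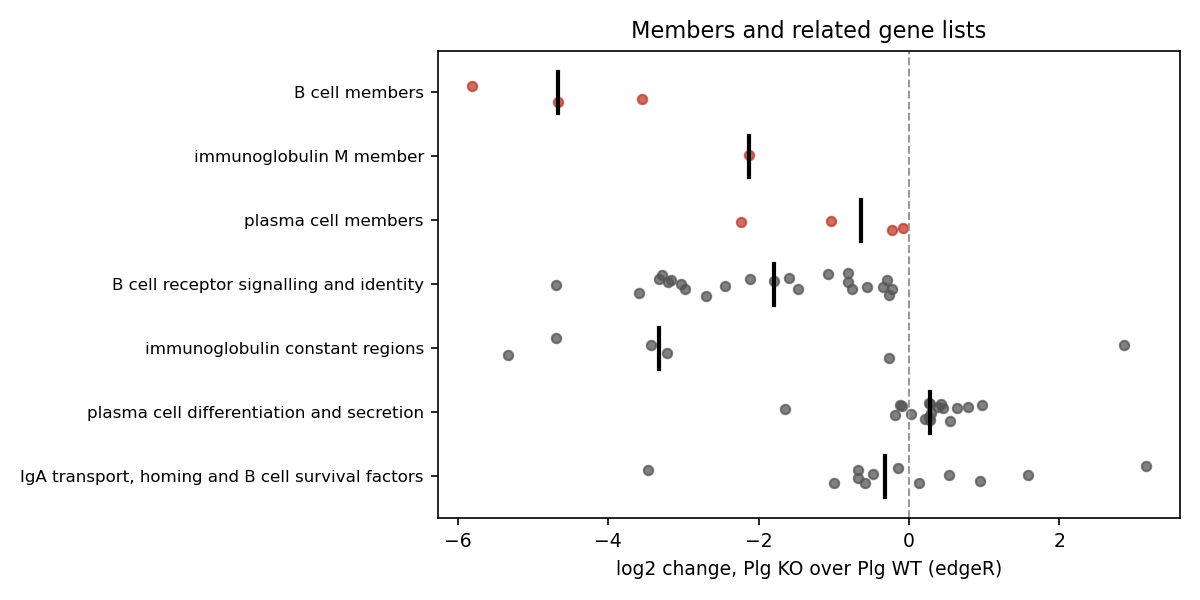
Log2 change of Plg KO over Plg WT (horizontal axis) for each tested gene of the member groups and of 4 related lists, 1 point per gene, with each list's median as a bar. All 23 tested genes of B cell receptor signalling and identity lie below 0, whereas the median of the plasma cell differentiation genes is 0.28, with 4 of 18 below 0.

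The plasma cell members did not order the libraries by genotype. Igkc, the constant region of the kappa light chain, which B cells make as well, and Jchain were low in Plg KO 1 and 2 and at or above the Plg WT level in Plg KO 3. Igkc (chromosome 6, 70726435 to 70726966) had 11, 11 and 1183 counts in Plg KO, against 1239, 638 and 422 in Plg WT. Jchain (chromosome 5, 88519809 to 88527891), which joins IgA dimers and IgM pentamers, had 14, 4 and 428 counts in Plg KO, against 174, 192 and 99 in Plg WT. In Plg KO 3 the Igkc level of 33.1 CPM was close to the highest Plg WT library, at 33.8 CPM, and the Jchain level of 12.0 CPM was above all 3. The log2 changes were -1.04 ± 1.38 for Igkc (edgeR adjusted p = 0.882) and -0.22 ± 1.22 for Jchain (edgeR adjusted p = 0.981). Plg KO 3 decided both values: without it they were -6.03 (edgeR adjusted p = 0.057) and -4.12 (edgeR adjusted p = 0.092). The Jchain change turned positive without Plg KO 1, at 0.32.

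Mzb1, an endoplasmic reticulum protein that helps to assemble IgM (chromosome 18, 35647267 to 35649367), was also highest in Plg KO 3 among the Plg KO libraries, at a lower level. It had 0, 0 and 14 counts in Plg KO, against 39, 21 and 5 in Plg WT, and the groups overlap (log2 change -2.23 ± 1.18, edgeR adjusted p = 0.638). Without Plg KO 3 the fitted log2 change was -7.40, which rests on 0 counts in Plg KO and so depends on the prior count of the fit. The counts of 0 allow up to 0.0824 CPM in Plg KO 1 and 0.115 CPM in Plg KO 2. Of the read-length words of Mzb1, 54.6% also occur in an overlapping annotated gene, so its counts are uncertain. Igha (chromosome 12, 113254830 to 113260236), the constant region of IgA, did not share this split. It had 22, 22 and 41 counts in Plg KO, against 34, 24 and 30 in Plg WT, or 0.866 ± 0.277 CPM in Plg KO and 0.915 ± 0.0533 CPM in Plg WT (SD, n = 3 each). The Igha groups overlap, the log2 change was -0.08 ± 0.33 (edgeR adjusted p = 0.970), and Plg KO 3 was not far above the other libraries. Leaving out Plg KO 1 turned its sign, to 0.13.

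Divided by exon length, Igkc was the most abundant member in both groups, at 21.2 ± 35.6 CPM per kilobase in Plg KO and 43.9 ± 19.1 in Plg WT (SD, n = 3 each). Within Plg WT, Ighm followed at 14.0 CPM per kilobase, then Cd79b and Cd79a at 5.22 each, Jchain at 1.96, Mzb1 at 0.542, Ms4a1 at 0.486, Igha at 0.343 and Pax5 at 0.0507. The Plg WT libraries of neighbours in this order overlap except between Igkc and Ighm, Jchain and Mzb1, and Igha and Pax5. Within Plg KO the order was Igkc, Ighm at 3.19 CPM per kilobase, Jchain at 1.66, Cd79b at 0.442, Igha at 0.324, Cd79a at 0.197, Mzb1 at 0.108, Pax5 at 0.0135 and Ms4a1 at 0.00749, and all neighbours overlap. Per length, Cd79a thus stood above Igha in Plg WT, whereas Igha stood above Cd79a in Plg KO 2 and 3. In Plg KO 1 the 2 genes were nearly equal per length, on 22 Igha and 12 Cd79a counts. The Plg KO counts behind this order were as low as 3, for Cd79a in Plg KO 2, and the order was not tested.

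Set against each other within a library, the plasma cell members and the B cell members gave a balance that differed more among Plg KO libraries than between the groups. The balance is the mean log2(CPM + 0.5) of Jchain, Mzb1, Igkc and Igha minus that of Cd79a, Cd79b, Ms4a1 and Pax5. It was 0.11, 0.34 and 2.54 in Plg KO 1, 2 and 3, against -0.61, 0.48 and 0.76 in Plg WT 1, 2 and 3. The means were 0.997 ± 1.34 in Plg KO and 0.21 ± 0.73 in Plg WT (SD, n = 3 each), a difference of 0.79 that is smaller than the spread within Plg KO. Without Plg KO 3 the difference was 0.01, and without both Plg KO 3 and Plg WT 1 it was -0.40. Most of these members lay below the added 0.5 CPM in Plg KO 1 and 2, which draws the balance of both libraries toward 0. Igkc, for example, was at 0.297 and 0.427 CPM there. Their balances, and the differences of 0.01 and -0.40 that rest on them, therefore cannot show whether the balance shifted. Over all libraries the difference was 1.16 with 0.1 CPM added and 0.43 with 2 CPM added. In summed levels, the 4 B cell members had 0.999, 0.660 and 1.60 CPM in Plg KO, against 36.7, 13.5 and 5.32 CPM in Plg WT. The plasma cell members summed to 1.27, 1.44 and 46.7 CPM in Plg KO, against 40.6, 31.2 and 17.8 CPM in Plg WT. Igkc, which B cells make as well, gave 33.1 CPM of this sum in Plg KO 3, and 33.8, 22.8 and 13.5 CPM in Plg WT. The part of B cells in the plasma cell sum and in the balance was not tested. Both sums were low in Plg KO 1 and 2, and Plg KO 3 combined a B cell sum below every Plg WT library with a plasma cell sum above every Plg WT library.

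**Figure D3:**
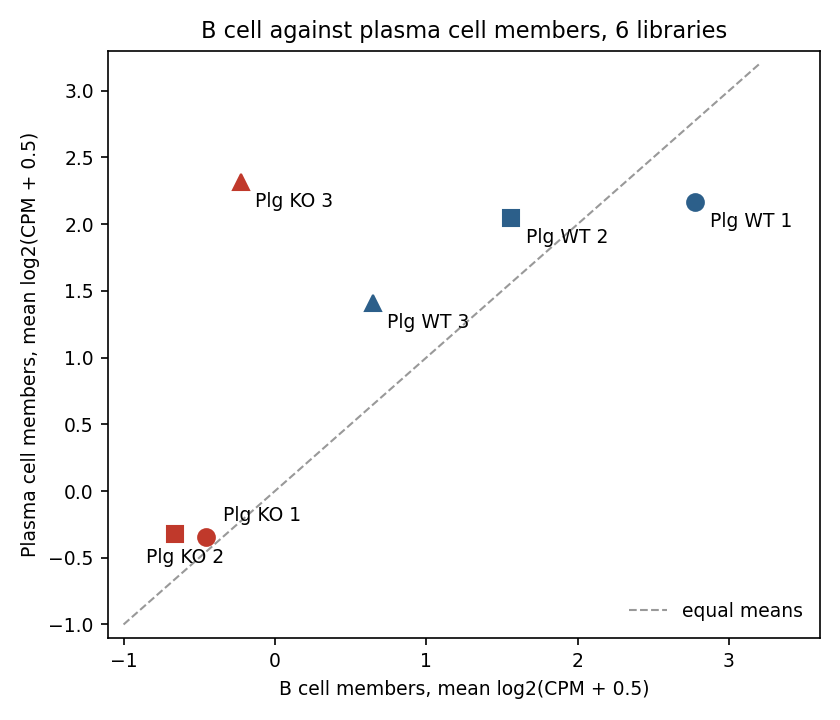
Mean log2(CPM + 0.5) of the 4 plasma cell members (vertical axis) against that of the 4 B cell members (horizontal axis), 1 point per library, with a dashed line where both means are equal. Plg KO 1 and 2 sit at the low end of both axes, and Plg KO 3, at 2.32 for plasma cell and -0.22 for B cell members, lies farthest above the line.

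The heavy chain constant genes split the counts by antibody class. Over Ighm, Ighd, the Ighg genes, Ighe and Igha, the libraries held 268, 157 and 1424 counts in Plg KO, against 2111, 1273 and 843 in Plg WT. IgG made up 2.99%, 14.0% and 76.8% of them in Plg KO 1, 2 and 3, against 15.1%, 9.90% and 42.2% in Plg WT 1, 2 and 3. The share in Plg KO 3 has a Wilson 95% interval of 74.6% to 78.9%, which covers counting error only. IgM and IgD together made up 88.8%, 72.0% and 20.3% in Plg KO, against 83.3%, 88.2% and 54.2% in Plg WT. Per length, Ighm counts were 5.95 and 2.82 times those of Igkc in Plg KO 1 and 2. The ratio was 0.0639 in Plg KO 3 and 0.287, 0.418 and 0.233 in Plg WT 1, 2 and 3. Heavy variable segments held only 4 and 5 counts in Plg KO 1 and 2. Whether the heavy chain counts of these libraries stand for complete antibody was not tested. The IgG counts of Plg KO 3 came from Ighg2b, with 8, 20 and 590 counts in Plg KO, against 291, 122 and 275 in Plg WT, and from Ighg2c. Ighg2c had 0, 2 and 483 counts in Plg KO, against 22, 3 and 36 in Plg WT (log2 change 2.86 ± 1.79, edgeR adjusted p = 0.705). The groups overlap, and the direction turned under limma-voom, at -0.78. Ighg1 had 21 counts, all in Plg KO 3, and Ighg3 had 0 counts in all Plg KO libraries, against 5, 1 and 45 in Plg WT. Ighe had 0 counts in every library.

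IgA was a small part of these counts in both groups. Igha took 8.21%, 14.0% and 2.88% of the heavy chain constant counts in Plg KO 1, 2 and 3, against 1.61%, 1.89% and 3.56% in Plg WT 1, 2 and 3. The mean share was 6.02 percentage points higher in Plg KO, and 3.19 without Plg KO 2. With counts pooled over libraries it was 4.60% in Plg KO and 2.08% in Plg WT, a difference of 2.52 points. In Plg KO 1 and 2 the shares rest on 22 Igha counts each, with Wilson 95% intervals of 5.48% to 12.1% and 9.44% to 20.3%. The Igha counts themselves differed little, as given above, while the other heavy chain counts of Plg KO 1 and 2 were fewer. Light chains also differed by library: lambda constant genes took 10 of 21 light chain constant counts in Plg KO 1 (47.6%), 4 of 15 in Plg KO 2 (26.7%) and 50 of 1233 in Plg KO 3 (4.06%). In Plg WT 1, 2 and 3 their share was 30.5%, 19.4% and 30.9%. The group means differed by -0.84 percentage points, within the spread of Plg KO, and the counts pooled over libraries gave 5.04% in Plg KO and 27.8% in Plg WT. Among lambda genes, Iglc1 had 2, 0 and 5 counts in Plg KO, against 221, 39 and 43 in Plg WT (log2 change -5.32 ± 0.95, not called by edgeR). Iglc2 had 1, 4 and 31 counts in Plg KO, against 207, 69 and 112 in Plg WT (edgeR adjusted p = 0.223), so the lambda genes were low in all 3 Plg KO libraries, Plg KO 3 included. Of the 9 constant genes beside the members, 6 were tested and 0 were called by edgeR or limma-voom. At an unadjusted edgeR p under 0.05, 4 were lower and 0 higher, against 4.27% and 4.97% of all tested genes. DESeq2 called the same number, 4, lower, against 0.721% of all tested genes. Ighd, 1 of these 4, is also on the list of B cell receptor signalling and identity genes and was counted there. Ighd and the lambda genes among the tested ones passed the filter on low counts only through Plg WT.

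**Figure D4:**
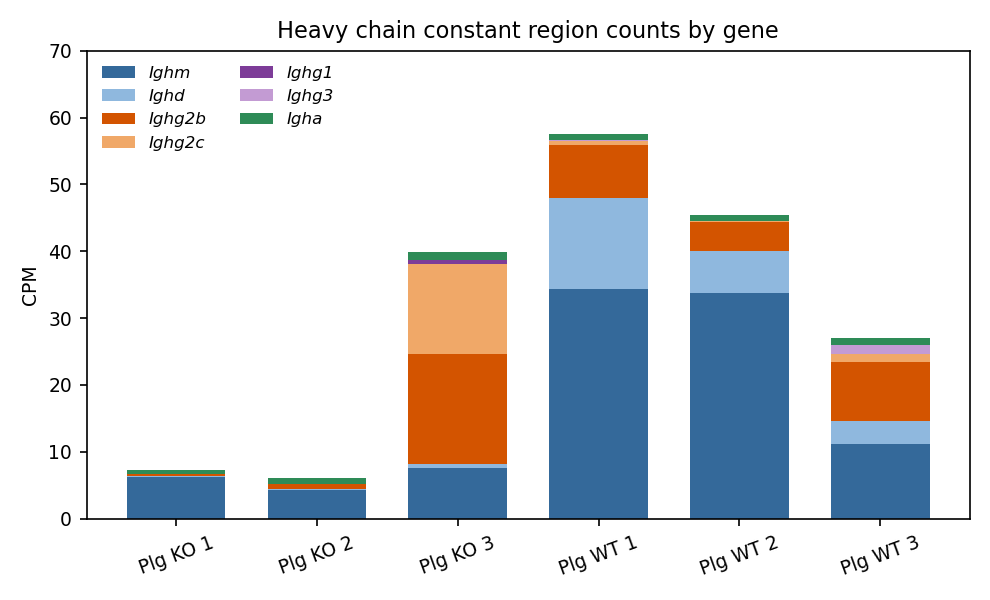
CPM of each heavy chain constant gene, stacked in 1 bar per library, with Plg KO libraries left of Plg WT libraries; Ighe, at 0 counts throughout, is left out. The bar of Plg KO 3 reaches 39.9 CPM and is mostly Ighg2b and Ighg2c, whereas Ighm leads the other 5 bars.

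Variable segments, which each B cell joins into its own antibody genes, were counted under 348 segment names. They held 14, 11 and 846 counts in Plg KO 1, 2 and 3, against 896, 576 and 394 in Plg WT 1, 2 and 3. The difference in mean level, -11.0 CPM, was smaller than the SD within Plg KO of 13.4 CPM, and was -18.8 CPM without Plg KO 3. At least 1 count was found on 12, 8 and 32 segments in Plg KO, against 128, 73 and 65 segments in Plg WT. Plg KO 3 thus held nearly as many segment counts as Plg WT 1 on fewer segments. Segments with at least 10 counts numbered 0, 0 and 11 in Plg KO, against 23, 7 and 8 in Plg WT. Ighv1-5 alone took 118 of 251 heavy segment counts in Plg KO 3 (47.0%, Wilson 95% interval 40.9% to 53.2%), and Igkv3-4 took 206 of 558 kappa segment counts (36.9%). In Plg WT 2, Ighv6-3 took 40.4% of heavy and Igkv8-34 42.3% of kappa segment counts. In Plg WT 3, Ighv7-3 took 42.3% and Igkv8-27 28.1%, and in Plg WT 1 the leading heavy and kappa segments, Ighv9-3 and Igkv6-15, took 14.4% and 14.2%. The leading heavy segment and the leading kappa segment were different ones in each of these 4 libraries. Among the 3 lambda segments, Iglv1 led with 33 of 37 lambda segment counts in Plg KO 3, against 114 of 158 in Plg WT 1 and 37 of 51 in Plg WT 2, and Iglv2 led in Plg WT 3 with 79 of 105. In Plg WT 1 and Plg WT 3 these lambda segments had the most counts of any segment. Of 27 segments with at least 20 counts in some library, 18 had at least 80% of their counts in 1 library, of which 7 were in Plg KO 3, 5 in Plg WT 1, 3 in Plg WT 2 and 3 in Plg WT 3. Choosing segments by a high count in some library raises this number. Plg KO 1 and 2, with at most 3 counts on any segment, could not contribute.

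The germline ends of the leading heavy and kappa segments are shown because their last bases are the part that joins to D or J segments and begins the third complementarity-determining region. Each is the last 90 bases of the GENCODE M21 transcript (GRCm38), with capitals at TACTGT or TACTGC, a tyrosine codon followed by a cysteine codon (the other spellings of the pair were searched too, on the printed strand only). These letters occur in the last 90 bases of 20 of the 27 segments named above (74.1%). Heavy segments lie on chromosome 12 and kappa segments on chromosome 6.
Ighv1-5 (Plg KO 3): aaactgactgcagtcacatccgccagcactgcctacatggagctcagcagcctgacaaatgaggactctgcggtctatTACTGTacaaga
Igkv3-4 (Plg KO 3): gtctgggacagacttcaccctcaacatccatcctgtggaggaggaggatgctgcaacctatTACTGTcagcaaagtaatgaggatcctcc
Ighv9-3 (Plg WT 1): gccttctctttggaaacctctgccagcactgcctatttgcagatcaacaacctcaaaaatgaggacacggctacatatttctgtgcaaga
Igkv6-15 (Plg WT 1): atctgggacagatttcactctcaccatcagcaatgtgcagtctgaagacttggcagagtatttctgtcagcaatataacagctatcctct
Ighv6-3 (Plg WT 2): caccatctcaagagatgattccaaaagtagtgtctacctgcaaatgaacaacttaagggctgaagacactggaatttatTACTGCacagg
Igkv8-34 (Plg WT 2): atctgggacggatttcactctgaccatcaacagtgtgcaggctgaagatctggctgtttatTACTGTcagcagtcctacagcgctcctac
Ighv7-3 (Plg WT 3): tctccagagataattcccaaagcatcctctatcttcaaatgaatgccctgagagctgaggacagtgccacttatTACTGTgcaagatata
Igkv8-27 (Plg WT 3): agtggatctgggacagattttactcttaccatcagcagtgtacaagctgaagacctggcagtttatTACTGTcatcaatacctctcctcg
Near-identical segments can share reads, and 53.4% of the read-length words of Igkv3-4 and 95.3% of those of Ighv1-5 occur in no other annotated gene. The counts are of germline segments as annotated, so they name segments and not antibodies.

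**Figure D5:**
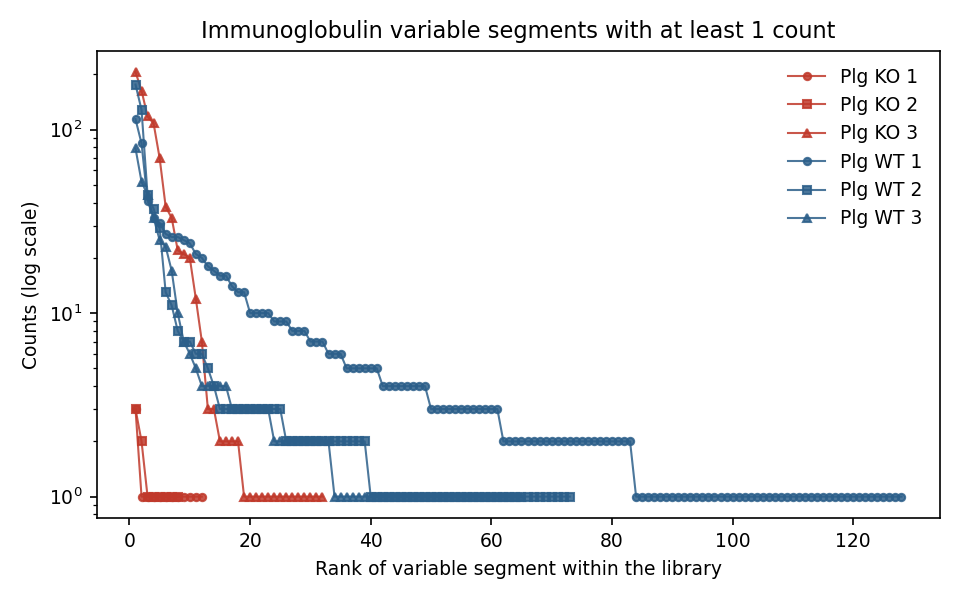
Counts per variable segment (vertical log axis) ranked from the most to the least counted (horizontal axis), 1 line per library. The Plg KO 3 line starts at 206 counts and ends at 32 segments, whereas the Plg WT 1 line runs to 128 segments and those of Plg KO 1 and 2 end at 12 and 8.

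Most genes of plasma cell differentiation and secretion had small positive log2 changes. Of 19 listed genes 18 were tested, with 0 called by edgeR or limma-voom. At an unadjusted edgeR p under 0.05, 1 was lower and 2 were higher, against 4.27% and 4.97% of all tested genes. Of the 18, 4 had a negative log2 change, and the median was 0.28, against 9024 negative of 17757 and a median of -0.00 over all tested genes. Tnfrsf13b, a receptor for the B cell survival factors BAFF and APRIL, was the lower one, with 38, 19 and 51 counts in Plg KO, against 192, 79 and 64 in Plg WT (edgeR adjusted p = 0.234). Fkbp11, a folding factor of secretory cells, averaged 44.7 ± 8.42 CPM in Plg KO and 22.8 ± 13.6 CPM in Plg WT (edgeR adjusted p = 0.487, and 0.0301 without Plg WT 1). Derl3, part of endoplasmic reticulum degradation, averaged 3.77 ± 0.894 CPM in Plg KO and 2.41 ± 0.553 CPM in Plg WT (edgeR adjusted p = 0.505). Pdia4, a disulfide isomerase, averaged 229 ± 6.79 CPM in Plg KO and 190.4 ± 26.0 CPM in Plg WT (edgeR adjusted p = 0.551). The regulators of plasma cell identity Xbp1 and Prdm1 and the surface marker Sdc1, which epithelium also expresses, had log2 changes of 0.39, 0.22 and -0.13 with overlapping groups. The folding genes serve other secretory cells too, and the summed level of salivary and minor gland markers was 8679, 8468 and 10631 CPM in Plg KO, against 11269, 3193 and 1862 CPM in Plg WT. Plg WT 2 and 3 had the lowest gland sums and the lowest Fkbp11 levels, and the part of gland tissue in these values was not tested.

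Genes that carry IgA or attract B and plasma cells were mixed in direction. Of 16 listed genes 12 were tested and 0 were called by edgeR or limma-voom, with a median log2 change of -0.31. At an unadjusted edgeR p under 0.05, 4 were lower and 2 higher, against 4.27% and 4.97% of all tested genes. Cxcl13, the chemokine that draws B cells into follicles, had 35, 17 and 50 counts in Plg KO, against 977, 129 and 74 in Plg WT, with no overlap (log2 change -3.47 ± 0.92, edgeR adjusted p = 0.261, and -1.78 without Plg WT 1). Cxcl12, a chemokine that retains plasma cells, averaged 43.2 ± 9.19 CPM in Plg KO and 64.8 ± 11.9 CPM in Plg WT (edgeR adjusted p = 0.363). Higher in all Plg KO libraries were Il6, a cytokine that sustains plasma cells, with 21, 39 and 29 counts in Plg KO, against 3, 0 and 7 in Plg WT (edgeR adjusted p = 0.234), and Ccl28. Ccl28, the chemokine that attracts IgA plasma cells to mucosa and is made by gland epithelium, had 321, 370 and 474 counts in Plg KO, against 289, 28 and 95 in Plg WT (log2 change 1.59 ± 0.62, edgeR adjusted p = 0.478). Ccl28, like Fkbp11, was lowest in the Plg WT libraries with the lowest gland sums.

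Markers of other cell types gave the setting of these differences. Markers of germinal centre and follicle summed to 40.8, 46.5 and 55.3 CPM in Plg KO, against 83.0, 50.4 and 52.1 CPM in Plg WT, and 4 of 9 tested were lower at an unadjusted p under 0.05. Part of that list (Cxcl13, Cr2 and Fcer2a) belongs to the B cell lists as well, and its sum was highest in Plg WT 1, the library with the most B cell transcripts. T cell markers summed to 58.4 to 62.6 CPM in Plg KO and 55.2 to 73.3 CPM in Plg WT, with 2 of 15 tested lower at an unadjusted p under 0.05. Their sums overlap between the groups, unlike the sums of the B cell members. Precursor B cell markers summed to 35.0, 36.1 and 39.9 CPM in Plg KO, against 38.9, 41.6 and 36.7 CPM in Plg WT. Of the 8 genes on that list 3 were tested, and Rag2, Dntt and Vpreb2 had 0 counts in every library. Neutrophil markers summed to 403, 774 and 440 CPM in Plg KO, against 287, 93.4 and 131 CPM in Plg WT, with 6 of 9 tested higher at an unadjusted p under 0.05. For each of these marker lists, the share over all tested genes at that edgeR p was 4.27% lower and 4.97% higher. Macrophage and monocyte markers summed to 177 to 264 CPM in Plg KO and 158 to 198 CPM in Plg WT. The part of these other cell types in the differences of the B cell lineage genes was not tested.

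With immunoglobulin genes and unnamed gene models left out, the 5 genes most like Cd79a over the 6 libraries included Cd79b, Ms4a1, Cxcl13 and Cd22. Likeness was the root mean square difference in centred log2(CPM + 0.5) over 14726 named genes, and it was 0.34, 0.34, 0.45 and 0.50 for these 4 genes, against a root mean square of 1.68 for the pattern of Cd79a itself. Of these, Cd22, an inhibitory co-receptor of B cells, had 2, 5 and 24 counts in Plg KO, against 254, 85 and 41 in Plg WT. Igkc was added after its values were seen. Of the genes compared, Jchain was nearest to it at 0.93, against a root mean square of 2.33 for Igkc itself. The next included Uckl1os, Cd22 and Bglap at 1.44, 1.51 and 1.57. Immunoglobulin genes were not among those compared, so the gap after Jchain holds for other genes only. Igha hardly varied, with a root mean square of 0.18, and 6576 of the genes lay within 0.25 of it, so its nearest genes, Fam220a, Col4a2, Klhl24, Perm1 and Apol6, say little. These are descriptions over 6 libraries that share the contrast between the genotypes.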

How the data were processed

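Gingival total RNA was sequenced from 3 Plg KO and 3 Plg WT libraries, made with Nextera XT (which does not mark strand) as 37 bp paired-end reads, per the labels' protocols. The submitters' processing notes name STAR 2.5.2a and the builds GRCm38.p3 and mm10. No counting tool or strand setting is given in the sources used here. Raw counts per gene, as deposited by the authors, were the input for all tests. A deposited table of TMM-scaled CPM values gave symbols for 21658 genes, and GENCODE M21 gave 26691 more, leaving 360 unnamed. Multiplied by 1 constant per library, 100.0% of the deposited CPM values came out as whole reads within 0.01 read, and the count test on these called 42 genes, 0 of them members. Entries that name no gene (22, at most 3.55e-05% of a library) were left out, and 0 sample columns went unused.

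The test was edgeR 4.0.16 (R 4.3.3) with TMM, filterByExpr, genotype as the only term and Benjamini-Hochberg adjustment over 17757 genes. CPM values in the text are TMM-normalised counts of that fit, scaled to a common library size, and the common biological coefficient of variation was 0.225. Depth of 26183389 to 36429150 counts per library puts the 3 counts that a count of 0 can hide at 0.0824 to 0.115 CPM. Reads carry no molecular identifiers, so limits and intervals cover counting error only. DESeq2 1.42.0, limma-voom (limma 3.58.1), limma-trend on the deposited CPM, other scalings and filters, a replicate block and leaving out libraries were alternatives. Leaving out both Plg KO 3 and Plg WT 1, and the recovered reads, were chosen after seeing the data. Fits were tested on simulated data.

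The 9 members and the lists were chosen with earlier results of these data known. Named beside the members are the 4 genes of each list with the smallest unadjusted p, the 5 genes nearest to Cd79a and to Igha, the other immunoglobulin constant genes and the leading variable segments. Xbp1, Prdm1, Sdc1 and the genes nearest to Igkc were added after their values were seen. The searches for nearest genes left out immunoglobulin genes and unnamed gene models. A few of the genes so chosen are not reported here. The share of a gene's 37-base words found in no other GENCODE gene served as a check on shared reads. Promoters are from RefSeq.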

Additional observations from a re-analysis of the deposited data

How the results depend on the processing

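Direction held under each alternative that gave a value for Cd79a, Cd79b, Ms4a1, Ighm, Igkc and Mzb1, but with Plg KO libraries wholly below Plg WT for the first 4, leaving out 1 library can hardly turn them. Against 42 genes called, there were 162 with no filter, 403 by DESeq2, 2 with the replicate block, 0 without both Plg WT 1 and Plg KO 3, and 2 to 219 when single libraries were left out (219 without Plg WT 1, and 2 or 3 without Plg WT 2, Plg WT 3, Plg KO 2 or Plg KO 3). Members called lower numbered 4 with no filter, 4 by DESeq2, and 0 to 1 when single libraries were left out. The causes were not tested. The Jchain log2 change was 0.32 without Plg KO 1, 0.33 without Plg KO 2 and 0.09 without Plg WT 2, and that of Igha was 0.13 without Plg KO 1, against -4.12 and -0.35 without Plg KO 3. Without both Plg WT 1 and Plg KO 3 that of Jchain was -4.15 and Mzb1 was not tested. The lambda share difference was -22.8 percentage points with counts pooled over libraries, where Plg KO 3 holds most Plg KO counts. For single genes, 352 alternative values kept direction and call and 29 passed the threshold where the reported value did not. The stricter filter dropped Ms4a1, Mzb1 and Igha. Same-numbered libraries had correlations of -0.26, -0.01 and -0.22 in their deviations from the group means, against -0.10 to 0.29 for libraries with unlike numbers. No pairing by number was seen, but deviations from means of 3 libraries depend on each other, so these values cannot exclude it. With the replicate block, 0 members were called. The low counts of Ms4a1, Pax5, Mzb1 and Igha limit what their values can show.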
